A study of Mus musculus with 12 samples.

Results

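The thyroid hormone, corticosteroid and retinoid receptor genes of the heart were examined for histone H3 lysine 27 acetylation (H3K27ac), a mark of active promoters and enhancers, in adult mouse cardiomyocytes (CMs) with and without RIP140, the nuclear receptor corepressor encoded by Nrip1. The 9 genes were Thra and Thrb (thyroid hormone receptors), Nr3c1 and Nr3c2 (glucocorticoid and mineralocorticoid receptors), Rxra and Rxrg (retinoid X receptors), Rara and Rarb (retinoic acid receptors) and Rora (an ROR orphan receptor), out of 14443 protein-coding genes with at least 1 acetylated region. A region belonged to a gene when it overlapped the gene body extended by 5 kb on each side in GENCODE M21 (GRCm38 build). By this rule the 9 genes held 166 of 53754 control regions and 128 of 45521 regions of the RIP140-null list.

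Control mice were Nrip1 f/f Cre- and knockout (KO) mice Nrip1 f/f Cre+, so both groups carried the floxed Nrip1 allele and only the KO group carried the Nkx2.5-Cre transgene, which recombines in Nkx2.5-expressing cardiac progenitors. CMs came from mice of 10 to 12 weeks by Langendorff perfusion and low-speed centrifugation, and 200000 cells entered each CUT&RUN experiment (antibody-directed cleavage of chromatin followed by sequencing). For each genotype 3 H3K27ac and 3 IgG libraries were made, and the deposited list holds the regions called in at least 2 of the 3 H3K27ac replicates. The lists give positions only. No value per replicate, signal height or read total was deposited in them, so depth is unknown and the comparisons below are between 1 merged list per genotype, without a test between genotypes.

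These receptors belong to the nuclear receptor superfamily and, apart from the orphan receptor encoded by Rora, are ligand-dependent transcription factors. Thyroid hormone and retinoic acid receptors bind DNA as heterodimers with retinoid X receptors and recruit corepressors or coactivators depending on the ligand, whereas the glucocorticoid and mineralocorticoid receptors reside with chaperones in the cytoplasm until they bind corticosteroids. RIP140 is recruited by nuclear receptors, ligand-bound ones among them, and can repress their targets. In the heart, thyroid hormone sets the myosin heavy chain isoform and calcium handling genes, corticosteroid receptors govern growth and fibrosis, retinoid receptors pattern the developing heart, and RORα acts within the circadian clock.

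The targeted locus and cell type markers were checked first. The last exon of Nrip1, 7616 bp long, had 2904 bp within control regions and 0 bp within KO regions. All 6 CM marker genes (Myh6, Tnnt2, Tnni3, Actn2, Ryr2, Pln) had regions in both lists. All 4 endothelial markers also had regions in both lists and covered 8.65% to 31.4% of their windows in control and 3.3% to 39.2% in KO. Of these, Cdh5 had 5079 bp in control and 1743 bp in KO, and Pecam1 33438 and 41698 bp. Of 5 fibroblast markers, Col1a1 had 764 bp in control and 834 bp in KO, Pdgfra had 1 control region only, and Col1a2, Dcn and Tcf21 had none. Of 4 macrophage markers only Cd68 had regions (1173 and 4128 bp), and Ptprc, Csf1r and Adgre1 had none. The part of endothelial cells in the receptor gene regions was not tested.

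All 9 receptor genes had acetylated regions in both genotypes, and none differed in covered length by more than 1.5-fold. Summed over the 9 windows, regions covered 514 kb in control and 517 kb in KO CMs, and 73.6% of the control length lay within KO regions. Covered length was higher in KO at 5 genes, from 1.09-fold at Rxra to 1.36-fold at Thra, and lower at 4 genes, down to 0.851-fold at Rxrg. At Rora the value stayed lower under every other window, width and list setting tried, but it did not at Rxrg (log2 0.03 with regions of at least 1000 bp), Nr3c2 (0.04 with equal list sizes, 0.22 by nearest start) or Rarb (0.05 by nearest start). The KO/control ratio had a median log2 value of 0.12 over the 9 genes, beside 0.08 over the 12989 protein-coding genes with regions in both lists. Among those genes 16.3% exceeded 1.5-fold in the KO direction and 8.6% in the control direction. For the 1989 genes of at least 100 kb, a class that includes Thrb, Nr3c1, Nr3c2, Rarb and Rora, the median was 0.01 and the shares were 10.1% and 10.6%.

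**Figure D1:**
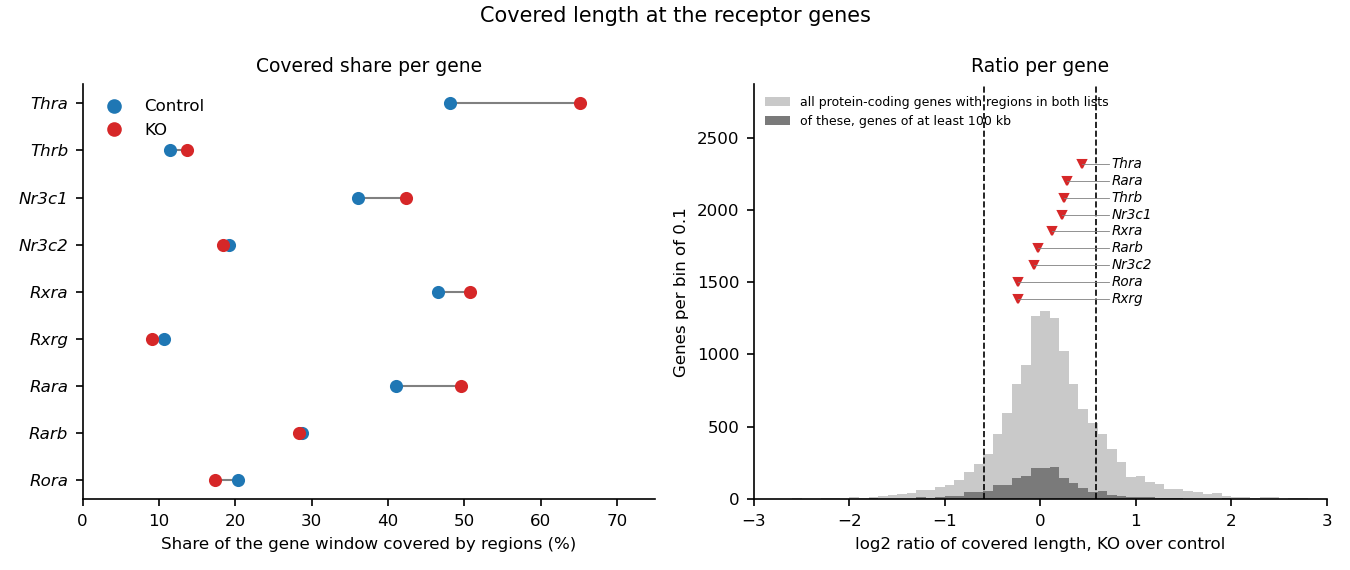
Left, share of each gene window (body with 5 kb on each side) covered by H3K27ac regions, in percent, for the control (blue) and KO (red) lists; right, histogram of the log2 ratio of covered length over 12989 protein-coding genes, with the 9 receptor genes as triangles and dashed lines at 1.5-fold. Thra differed most, with 48.1% in control and 65.2% in KO, and all 9 triangles lie between the dashed lines.

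The number of regions was lower in KO at every one of the 9 genes, and their median width was greater at every one. The same holds for the lists as a whole, whose median widths were 1850 bp in control and 2290 bp in KO. A region is called genotype-only when no base of it is covered by the other list. The receptor genes held 52 control-only and 24 KO-only regions. Thus 31.3% of their 166 control regions were control-only (95% Wilson interval 24.8 to 38.7), beside 29.5% of all control regions, and 18.8% of their 128 KO regions were KO-only (12.9 to 26.4), beside 21.5% of all KO regions. Both shares are close to those of the lists as a whole. KO-only regions made up 31.6% (22.2 to 42.7) of the genotype-only regions at these genes and 38.2% of those across the genome.

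At least 1 control-only region was present at 8 of the 9 genes, beside 39.2% of all genes with a region, and at least 1 KO-only region at 6, beside 35.2%. These shares depend on gene length. In genes of at least 100 kb, 79.1% had a control-only and 67.5% a KO-only region, and all 5 receptor genes of that length had both. Of the 4 shorter genes, 3 had a control-only region and only Rara had a KO-only region. Rora alone accounted for 24 of the 52 control-only and 12 of the 24 KO-only regions.

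**Figure D2:**
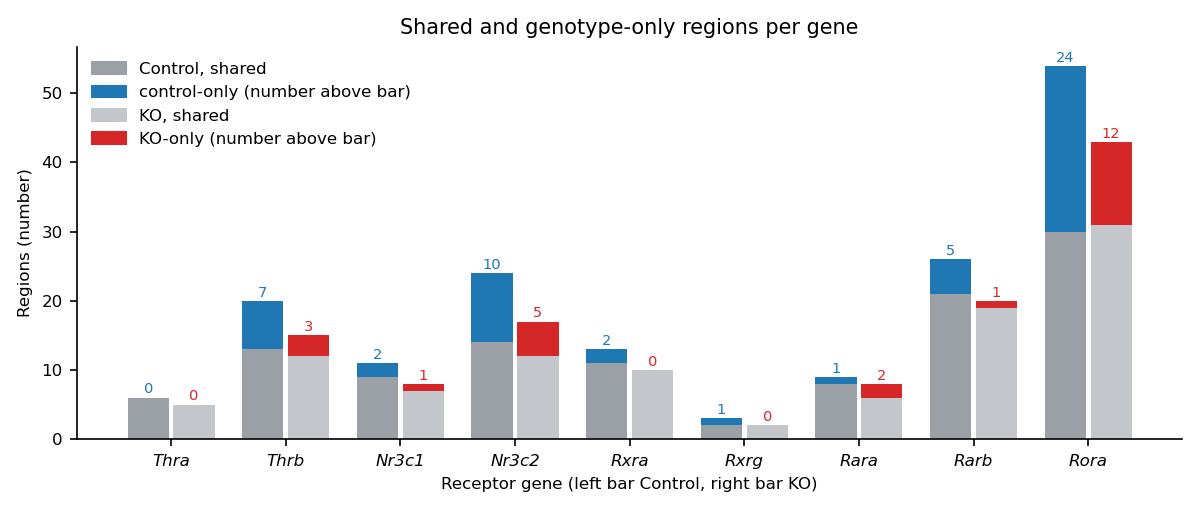
Number of H3K27ac regions per receptor gene in the control list (left bars) and the KO list (right bars), with regions shared by the lists in grey and genotype-only regions in color and counted above the bars. Thra has none of either kind, and Rora has the most of both, 24 and 12.

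Genotype-only regions were narrow and mostly joined from few replicate regions. Their median width was 1280 bp for control-only and 1300 bp for KO-only regions, beside 3070 and 3410 bp for the shared regions of these genes. The lists as a whole showed the same order. Their medians were 1040 bp for control-only and 1280 bp for KO-only regions, beside 2400 and 2690 bp for shared regions. Each merged region records how many replicate regions were joined, and a region joined from 2 comes from exactly 2 of the 3 replicates. The number counts regions, not replicates, and reached 10 in a KO region of 26806 bp at Rarb. A region joined from 3 or more can therefore still come from 2 replicates. Exactly 2 replicate regions were joined in 47 of the 52 control-only regions (90.4%, interval 79.4 to 95.8). The same held for 18 of the 24 KO-only regions (75%, 55.1 to 88). Across the genome the shares were 94.3% and 87.8%. Among the shared regions of the receptor genes the share was 52.6% in control and 40.4% in KO, beside 58.3% and 53.6% of all shared regions. Counting only those built from 3 or more replicate regions left 5 control-only and 6 KO-only regions, and the KO-only share was then 54.5% (28 to 78.7) in place of 31.6%. The lists as a whole moved likewise, from 38.2% to 56.9%. All but 2 of the 76 genotype-only regions were centered in introns, and none was centered on a promoter, defined here as 1000 bp upstream to 100 bp downstream of an annotated start. The exceptions lay in the flanks of Rara, a control-only region centered at -4.27 kb from its start and a KO-only region just beyond its end. Shared regions of the receptor genes were also mostly centered in introns, 99 of 114 in control and 95 of 104 in KO. In each list 6 shared regions were centered on a promoter. The corresponding shares across the genome were not counted.

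**Figure D3:**
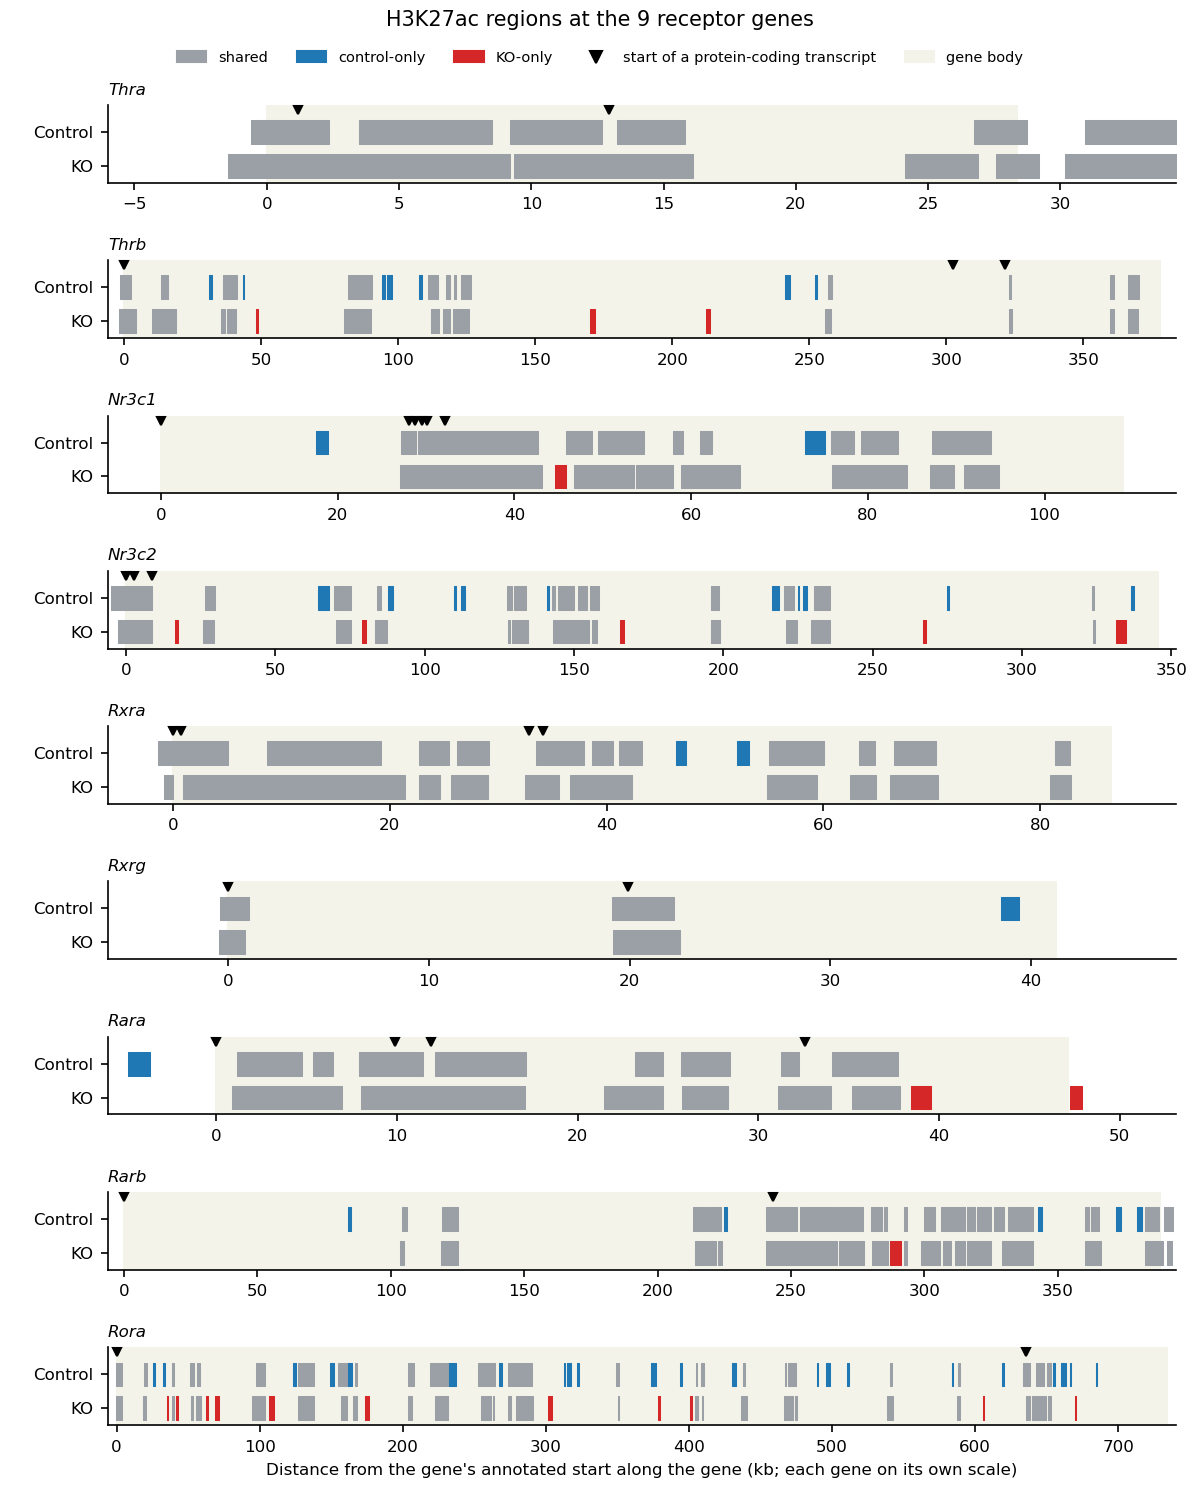
H3K27ac regions of the control and KO lists along each receptor gene, with the distance from the gene's annotated start in kb on the horizontal axis, shared regions in grey, control-only in blue and KO-only in red; triangles mark starts of protein-coding transcripts. Thra, Rxra and Rxrg hold no KO-only region, while those of Rora are spread from 35.6 to 670 kb.

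The lists also differed in how far shared domains extended. Overlapping control and KO regions were joined into 90 loci at the receptor genes. The KO/control width ratio had a median log2 value of 0.11 over these loci (95% order-statistic interval 0.01 to 0.20), beside 0.08 over 32649 loci genome-wide. In KO, 17 loci were more than 1.5-fold wider (18.9%, 12.1 to 28.2) and 8 more than 1.5-fold narrower (8.89%, 4.57 to 16.6), beside 17.3% and 10.3% of all loci. Of the 8 narrower loci 6 were in Rora and 2 in Nr3c2, and the other 7 genes had none.

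At 16 of the 90 loci the control list had more, smaller regions than the KO list (17.8%, 11.2 to 26.9), and at 8 the KO list had more (8.89%, 4.57 to 16.6). The corresponding shares of all loci were 10.3% and 5.07%. Gaps between neighboring regions were also counted individually. Of the 96 gaps of up to 5000 bp between neighboring control regions at these genes, 24 were spanned by a single KO region (25%, 17.4 to 34.5), beside 24.5% of such gaps genome-wide. Of 63 gaps between KO regions, 14 were spanned by a control region (22.2%, 13.7 to 33.9), beside 19.3%. The spanned control gaps had a median length of 720 bp and ranged from 185 to 3557 bp.

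**Figure D4:**
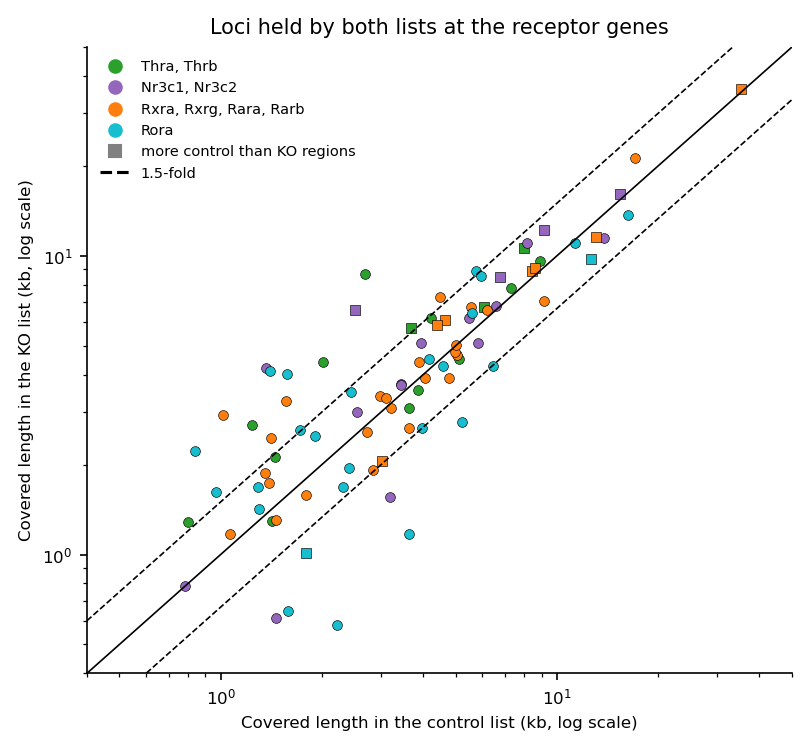
Length covered by control regions (horizontal axis, kb, log scale) and KO regions (vertical axis, kb, log scale) at the 90 loci held by both lists; colors give the receptor family, squares the 16 loci with more control than KO regions, and dashed lines 1.5-fold. There are 17 loci above the upper line and 8 below the lower line, the latter from Rora (6) and Nr3c2 (2).

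Thra, which encodes the predominant thyroid hormone receptor of the heart, was the most densely acetylated gene of the set. It spans chr11:98740638-98769006 on the plus strand (28.4 kb). Regions covered 48.1% of its window in control, above 94.9% of all genes with a region, and 65.2% in KO. All of its 6 control and 5 KO regions were shared. Control regions of 2962 and 4995 bp over and beyond its main start corresponded to a single KO region of 10660 bp, and the next pair of 3484 and 2567 bp corresponded to a KO region of 6762 bp. The 556 bp between the latter pair contain the start of transcript Thra-203, 12.9 kb into the gene, which therefore lay within a region in KO only. Near the gene's end, the covered length was 2010 bp in 1 control region and 4404 bp in 2 KO regions (2.19-fold). A further region of 7279 bp in control and 7825 bp in KO began in the downstream flank and reached over the start of Nr1d1, the clock repressor REV-ERBα, which is transcribed toward Thra. Nr1d1 (chr11:98767932-98775333) also overlaps the end of Thra, the locus there and part of the Thra window. Which gene the flank region and that locus serve cannot be told apart from position alone.

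Thrb, the second thyroid hormone receptor gene, is long (chr14:17660261-18038090, plus strand, 378 kb) and sparsely covered, with 11.5% of its window in control and 13.7% in KO. Its 20 control and 15 KO regions included 7 control-only and 3 KO-only regions. The locus at its upstream start was 4230 bp wide in control and 6194 bp in KO (1.46-fold). The highest width ratio of any locus of the 9 genes was 14.5 kb into the gene, with 2682 bp in control and 8724 bp in KO (3.25-fold). In all, 4 of its 11 shared loci were more than 1.5-fold wider in KO and none narrower, and their median log2 ratio was 0.54. Protein-coding transcripts Thrb-207 and Thrb-202 start 303 and 321 kb downstream of the upstream start, and neither promoter held a region in either genotype. The nearest region was 1486 bp away from the Thrb-202 promoter in control and 1370 bp in KO.

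Nr3c1, the glucocorticoid receptor gene (chr18:39410545-39519421, minus strand, 109 kb), was covered over 36.1% of its window in control and 42.3% in KO. A broad domain lay over its cluster of alternative first exons, 28.1 to 32.2 kb from the annotated gene start. In control this domain comprised regions of 13596 and 1756 bp with 185 bp between them, and in KO a single region of 16086 bp. All 5 starts within it had their promoter held in both lists, whereas the promoter at the annotated gene start was bare in both. The locus 61.7 kb into the gene covered 2515 bp in control and 6606 bp in KO (2.63-fold), and it was the only locus of Nr3c1 past 1.5-fold. Control-only regions of 2213 and 1346 bp lay 74 and 18.3 kb from the start, and a KO-only region of 1212 bp lay at 45.2 kb.

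Nr3c2, the mineralocorticoid receptor gene (chr8:76899442-77245012, plus strand, 346 kb), had near equal covered length, 68389 bp in control and 65447 bp in KO. Of its 24 control regions 10 were control-only, of its 17 KO regions 5 were KO-only, and 69.4% of the control length lay within KO regions. The domain at its 3 coding starts was 13844 bp in control and 11469 bp in KO. It reached the promoter of the most downstream one but ended short of that start in both lists, and it also contained the start of the divergent noncoding gene Gm10649 in both lists. At 149 kb, 3 control regions totaling 9122 bp corresponded to a single KO region of 12188 bp. The locus at 85.4 kb measured 1366 bp in control and 4218 bp in KO (3.09-fold). Those at 128 and 157 kb were narrower in KO, with 1465 and 613 bp and with 3184 and 1559 bp. The widest control-only region of the gene (3674 bp at 66.1 kb) and its widest KO-only region (3332 bp at 333 kb) were each built from 3 replicate regions.

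Rxra, the common heterodimer partner of the thyroid hormone and retinoic acid receptors, differed between the lists at 2 of its starts. It spans chr2:27676440-27762957 on the plus strand (86.5 kb), and regions covered 46.6% of its window in control and 50.7% in KO. In control, regions of 6504 and 10532 bp were separated by 3557 bp. In KO this gap was filled by a region of 20422 bp. Conversely, the KO list had a gap of 942 bp, between that region and an upstream one of 866 bp, that the control region of 6504 bp spanned. The start shared by Rxra-201 and Rxra-206 falls in this gap. The start of Rxra-202, 32.9 kb into the gene, showed the reverse: it lay within a KO region of 3161 bp, and the nearest control region stopped 539 bp short of its promoter. It was the only one of 28 starts of the 9 genes whose promoter was held in a single list.

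The 2 Rxra promoters over which the lists differed are shown as 300 bases of the RefSeq sequence each (GRCm38.p6, plus strand), from 250 bases upstream, with bases from the annotated start on in capitals. All 300 bases of the Rxra-201 window (chr2:27676951-27677250) lay within a control region and 0 within a KO region. All 300 bases of the Rxra-202 window (chr2:27709042-27709341) lay within a KO region and 0 within a control region. Their G and C content was 83% and 54.3%.
Rxra-201: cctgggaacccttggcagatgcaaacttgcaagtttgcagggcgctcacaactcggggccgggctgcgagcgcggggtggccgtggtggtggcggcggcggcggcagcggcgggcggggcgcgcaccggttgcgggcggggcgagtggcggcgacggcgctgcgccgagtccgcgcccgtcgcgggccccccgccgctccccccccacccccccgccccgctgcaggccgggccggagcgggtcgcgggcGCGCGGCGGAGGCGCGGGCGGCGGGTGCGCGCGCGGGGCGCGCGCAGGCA
Rxra-202: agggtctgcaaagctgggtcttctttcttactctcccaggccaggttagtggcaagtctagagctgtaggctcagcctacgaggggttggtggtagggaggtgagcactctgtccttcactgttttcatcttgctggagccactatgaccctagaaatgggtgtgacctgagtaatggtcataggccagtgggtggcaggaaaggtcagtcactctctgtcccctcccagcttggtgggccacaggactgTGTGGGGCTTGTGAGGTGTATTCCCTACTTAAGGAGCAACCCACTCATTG

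Rxrg, the retinoid X receptor of striated muscle and brain, had the fewest regions. It spans chr1:167598384-167639623 on the plus strand (41.2 kb). Regions over its upstream start were 1464 bp wide in control and 1306 bp in KO, and those over the start of Rxrg-202 at 19.9 kb were 3095 and 3337 bp. The only other region, of 897 bp at 38.9 kb, was control-only and built from 2 replicate regions. It accounts for the lower covered length in KO (4643 against 5456 bp, log2 ratio -0.23).

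Rara, the retinoic acid receptor α gene (chr11:98927818-98974942, plus strand, 47.1 kb), was covered over 41% of its window in control and 49.6% in KO. Its promoter at the annotated gene start (Rara-203) was bare in both lists. A control region of 3570 bp touched the promoters of Rara-201 and Rara-204 at 9.88 kb and of Rara-207 at 11.9 kb. A gap of 672 bp, which contains the start of Rara-207, separated it from the next control region of 5048 bp, and a KO region of 9102 bp spanned this gap. The locus at Rara-202, 32.6 kb into the gene, covered 1015 bp in control and 2934 bp in KO (2.89-fold), and the control region ended before the start itself. The locus at 23.1 kb measured 1560 and 3265 bp (2.09-fold). Rara was the only receptor gene with more KO-only regions than control-only regions (2 and 1).

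Rarb, the retinoic acid receptor β gene (chr14:16430839-16819156, minus strand, 388 kb), carried the widest acetylated domain of the set. Its annotated gene start (Rarb-203 and Rarb-204) was bare in both lists, with the nearest region 83651 bp away in control and 103088 bp in KO. The start of Rarb-201 and Rarb-207, 243 kb further on, lay in a domain of 3 control regions of 11397, 12013 and 11933 bp and of 2 KO regions of 9278 and 26806 bp. The covered length of this domain was nearly the same, 35343 bp in control and 36084 bp in KO, and the difference was in where the regions were divided. The antisense gene Gm48162 starts in the same domain. The widest KO-only region of all 9 genes, 4161 bp from 3 replicate regions, lay 289 kb into Rarb, between 2 shared loci. Over the whole window the covered lengths were 114386 and 112588 bp (log2 ratio -0.02).

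Rarb is itself induced by retinoic acid through a response element close to the start of its shorter transcripts. The RefSeq start is annotated 351 bp downstream of the GENCODE start named above, and the RefSeq promoter window around it (chr14:16575427-16575726, minus strand, GRCm38.p6, read 5′ to 3′ along the gene) does not contain the latter. The window lay wholly within regions of both lists. It is printed because it holds 2 GTTCA motifs with 6 bases between them, given in capitals with the bases between (chr14:16575513-16575528). The pattern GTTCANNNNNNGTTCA, on either strand, occurred in 25 of 32851 RefSeq promoter windows (0.0761%) and in no other of the 13 windows of the receptor genes. The pattern was written from the Rarb element, so its match at Rarb was set in advance. The share describes only how often these letters occur.
Rarb-201: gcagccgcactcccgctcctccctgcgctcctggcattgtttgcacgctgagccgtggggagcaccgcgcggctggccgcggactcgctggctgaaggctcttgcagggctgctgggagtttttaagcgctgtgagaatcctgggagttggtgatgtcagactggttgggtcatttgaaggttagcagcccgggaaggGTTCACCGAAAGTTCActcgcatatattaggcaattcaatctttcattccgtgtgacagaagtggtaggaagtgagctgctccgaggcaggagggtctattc

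**Figure D5:**
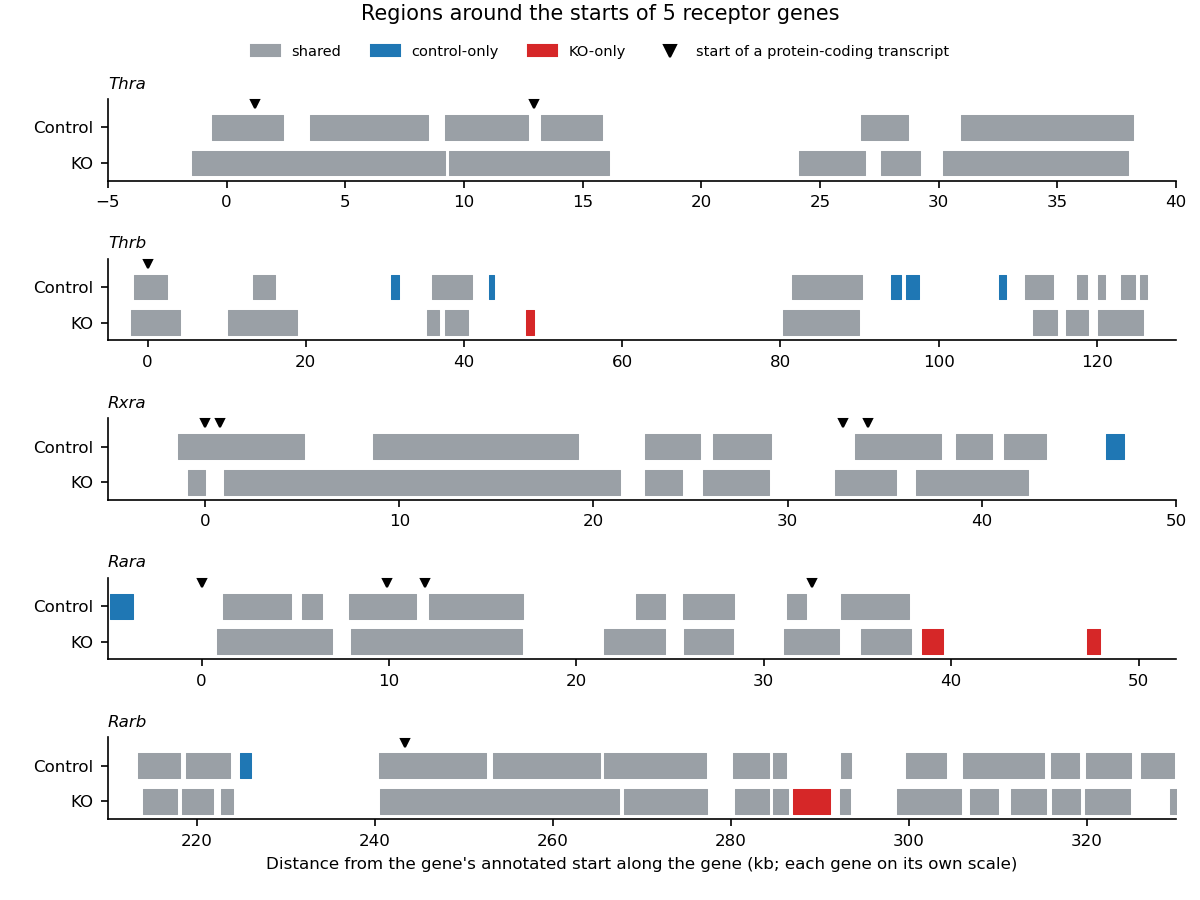
Control and KO regions around the starts of 5 receptor genes, with the distance from the gene's annotated start in kb on the horizontal axis and triangles for starts of protein-coding transcripts. Neighboring control regions lie above single KO regions at Thra, Thrb, Rxra, Rara and Rarb, and the KO list alone has a gap at the second start of Rxra.

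Rora (chr9:68653786-69388246, plus strand, 734 kb) was the longest gene of the set. It held 54 control and 43 KO regions, and only 56.2% of its control length lay within KO regions, the lowest such share of the 9 genes, whose other shares ran from 69.4% to 95.4%. Of its KO length 65.9% lay within control regions, a share that was lower at Thrb (61.6%). Covered length was 150763 bp in control and 128536 bp in KO (log2 ratio -0.23). Its genotype-only regions numbered 4.84 per 100 kb, beside 5.25 at Rara, 4.22 at Nr3c2 and a median of 1.66 over the 2134 genes of at least 100 kb with a region. Of its 36 genotype-only regions 29 were built from 2 replicate regions. Its 26 shared loci were balanced, with 6 wider and 6 narrower in KO. The highest ratio of Rora was 439 kb into the gene (1399 bp in control, 4110 bp in KO, 2.94-fold) and the lowest at 350 kb (2212 and 581 bp, 0.263-fold). At the downstream start (Rora-202, 636 kb) the locus measured 5225 bp in control and 2780 bp in KO (0.532-fold), and at the upstream start (Rora-201) it measured 4167 and 4520 bp. Of the control-only regions of all 9 genes the widest, 4693 bp from 4 replicate regions, lay at 235 kb, and the widest KO-only region of Rora, 3588 bp from 3, lay at 108 kb.

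Most starts of the receptor genes lay at or within a region in both genotypes. Starts within 500 bp of each other were counted as 1, which gave 28 for the 9 genes. A region held the promoter of 22 of the 28 in control and 23 in KO, beside 39.9% and 42% of all 34338 starts of protein-coding genes. The latter include starts of genes with no region in either list (34.2% of protein-coding genes), whereas all 9 receptor genes had regions. All 9 genes had at least 1 start held in both lists, and 5 starts were bare in both (Thrb-207, Thrb-202, Rara-203, the annotated gene start of Nr3c1, and the joint start of Rarb-203 and Rarb-204). None was held in control only and 1 in KO only, beside 2.98% and 5.1% of all starts.

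Response elements for the receptors themselves were then searched in the central 1000 bp of each region, on both strands. The elements were direct repeats of the AGGTCA hexamer with 1, 4 or 5 bases between them (DR1, DR4 and DR5, for retinoid X, thyroid hormone and retinoic acid receptors), the corticosteroid element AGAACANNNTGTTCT (IR3) and the ROR element AANTAGGTCA, each with at most 1 mismatch, and the estrogen-related receptor (ERR) element TCAAGGTCA without mismatch. The direct repeats, the ROR element and the ERR element overlap in the hexamer AGGTCA. At least 1 match was present in 23.5% of the 166 control regions of the receptor genes (17.7 to 30.5) and in 29.7% of the 128 KO regions (22.5 to 38.1), beside 25.4% of all control and 25.7% of all KO regions. Most were ROR elements, in 33 control (19.9%) and 25 KO regions (19.5%), beside 19.5% of all control and 19.6% of all KO regions. The ROR element has 9 fixed letters, and the direct repeats and the corticosteroid element have 12. Of the KO-only regions 10 of 24 had a match (41.7%, 24.5 to 61.2). Among control-only regions 14 of 52 had one (26.9%, 16.8 to 40.3), and the intervals overlap. In the central 200 bp the order turned, with a match in 1 KO-only and 4 control-only regions. Over whole regions it was kept (11 and 22), and exact matches occurred in 1 and 2. The intervals treat regions as independent, so the genotypes were not compared by a test. Match shares of genotype-only regions elsewhere in the genome were not counted. A match describes letters and is no evidence of binding.

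Matches of the paired elements in the central 1000 bp were rare in genotype-only regions. DR1, DR4 and IR3 occurred in 1 KO-only region each, and none of these or DR5 in a control-only region. DR5 was absent from KO-only regions as well. The DR5 pattern also had no match in the RefSeq promoter window of Rarb, which holds the element printed above. Its lack of matches therefore cannot show that retinoic acid response elements were absent. Of all KO regions 2.19%, 1.2% and 0.795% had a DR1, DR4 and IR3 match. Over whole regions, DR1 occurred in 2 KO-only and 1 control-only, DR4 in 1 and 2, and IR3 in 2 and 0. The central matches are shown with 45 bases on each side, the match in capitals. Beside them are the exact ROR and ERR matches of a control-only region of Rora. The coordinates given are those of each printed stretch with its flanks. The Thrb DR4 match (chr14:17830724-17830829, minus strand) lay in a KO-only region of 1881 bp in an intron, 171 kb into the gene, and differed from the element by G12A, counted from the 5′ end of the element with the element's base first. The Thrb IR3 match (chr14:17873385-17873489, plus strand) lay in a KO-only region of 1525 bp at 213 kb and differed by C14T. The Rora DR1 match (chr9:68695907-68696009, minus strand) lay in a KO-only region of 1513 bp at 42.1 kb and differed by A1G. The exact ROR match (chr9:68921602-68921701, plus strand) and an exact ERR match (chr9:68922472-68922570, plus strand) lay in the same control-only region of 2099 bp, 268 kb into Rora. All 4 of these regions were built from 2 replicate regions. An exact ERR match lay in the central 1000 bp of 1 of the 24 KO-only regions (4.17%), at Nr3c1, which is not shown. Among the 52 control-only regions 2 had one (3.85%). Of all KO and all control regions, 3.24% and 3.08% had one.
Thrb DR4: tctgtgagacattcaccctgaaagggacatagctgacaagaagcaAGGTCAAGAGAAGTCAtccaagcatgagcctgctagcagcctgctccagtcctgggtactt
Thrb IR3: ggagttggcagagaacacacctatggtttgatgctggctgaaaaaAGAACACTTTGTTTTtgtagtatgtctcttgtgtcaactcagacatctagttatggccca
Rora DR1: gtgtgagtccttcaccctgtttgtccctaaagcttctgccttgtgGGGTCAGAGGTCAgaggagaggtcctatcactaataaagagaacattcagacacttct
Rora ROR: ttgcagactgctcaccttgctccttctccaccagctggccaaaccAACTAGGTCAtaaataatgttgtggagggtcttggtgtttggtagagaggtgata
Rora ERR: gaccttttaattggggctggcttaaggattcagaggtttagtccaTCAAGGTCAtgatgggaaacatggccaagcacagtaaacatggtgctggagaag

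Other receptors of these families were examined in the same way. Of Rxrb, Rarg, Rorb, Pgr, Esr1, Esr2 and Vdr, 5 had regions in control and 6 in KO, and Pgr had none. Their covered shares reached at most 33.7% of the window in control and 25.5% in KO. Past 1.5-fold were Vdr, the vitamin D receptor gene (4953 and 8374 bp, 1.69-fold), Rarg, the retinoic acid receptor γ gene (9954 and 6450 bp, 0.648-fold), and Esr2, the estrogen receptor β gene (1365 and 752 bp, 0.551-fold). Thus 1 was higher and 2 were lower in KO, of 5 genes with regions in both lists. Over all such genes the shares were 16.3% and 8.6%, and 5 genes are too few to set against them. Esr1 had a single KO-only region and no control region.

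Of 16 genes of hormone supply and removal, 9 had no region in either list, beside 34.2% of all 21938 protein-coding genes, among them the deiodinases Dio1, Dio2 and Dio3, the retinoic acid synthase Aldh1a2 and the hydroxylases Cyp26a1 and Cyp26c1. Slc16a10, which transports thyroid hormone, covered 26552 bp in control and 28856 bp in KO. Hsd11b1, which regenerates active glucocorticoid, covered 10362 and 12448 bp. Cyp26b1, which degrades retinoic acid, was the only member past 1.5-fold (1075 and 5488 bp, 5.11-fold), with 1 control-only and 2 KO-only regions and none shared. It was 1 of 5 genes of this list with regions in both genotypes, and 16.3% of all such genes were past this fold in the KO direction. Hsd11b2 had a single control-only region and Aldh1a1 a single KO-only region.

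Receptor chaperones, coregulators and target genes were acetylated in both genotypes. All 4 chaperone genes (Fkbp4, Fkbp5, Hsp90aa1 and Hsp90ab1) stayed within 1.5-fold. Of 7 coregulator genes only Hdac3, the deacetylase of the nuclear receptor corepressor complexes, passed 1.5-fold (3376 and 6820 bp, 2.02-fold), while the corepressor gene Ncor1 had a ratio of 1.18. Of 13 known heart targets, only Hcn2, a pacemaker channel gene induced by thyroid hormone, passed it (1870 and 5322 bp, 2.85-fold). Neither count exceeds the share of all genes past this fold (16.3% higher and 8.6% lower in KO). The thyroid hormone targets Myh6 and Atp2a2, encoding α-myosin heavy chain and the sarcoplasmic reticulum calcium pump, had ratios of 0.841 and 1.33. The glucocorticoid targets Tsc22d3 and Per1 had ratios of 1.07 and 1.35, and Klf15 0.932. Median log2 ratios were 0.24 for the coregulators, 0.05 for the targets and -0.01 for the chaperones, beside 0.08 over all genes.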

How the data were processed

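CUT&RUN libraries for H3K27ac and IgG were made from CMs of control and KO mice, with 3 of each per genotype, and sequenced as paired ends. Per the study's methods and the submitters' processing notes, the authors aligned reads with Bowtie2 2.4.2, removed duplicates with SAMtools, called regions against IgG with HOMER 4.11.1 in histone style and merged them, keeping those of at least 2 of 3 replicates. Per the file headers, each deposited list holds start and end positions, the number of joined replicate regions in the name, and a score of 1 in every row, which was not used. A merged region is the union of its replicate regions, so joining widens it. The calls per replicate were not analysed here.

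Positions were taken as GRCm38 and compared with GENCODE M21 and the RefSeq GRCm38.p6 genome and promoter windows. Regions on sequences other than chromosomes 1 to 19, X and Y (35 in all) were left out. Shared meant at least 1 bp of overlap. Covered length was cut at the window. Code was tested on simulated regions and planted motifs (Python 3.11.15, numpy 2.4.6, scipy 1.17.1, pysam 0.24.0, samtools 1.23.1). Wilson intervals treat regions as independent and carry no error between mice. Regions named in the text were the widest genotype-only region, the widest of each list and those over promoters of each gene; loci beyond these, the Rarb element search and the gap counts were chosen after the values were seen. Other genes came from pathway lists and were named when past 1.5-fold, when without shared regions, or as examples; 4 genes of these lists are not reported here. The genes and lists were chosen with earlier results of these data known.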

Additional observations from a re-analysis of the deposited data

How the results depend on the processing

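No paired analysis was possible because each genotype has 1 merged list without replicate values; for the same reason no replicate could be left out. Of 62 alternative values of the main results that could move, 45 stayed close to the reported value. Requiring 50% of a region to be covered by the other list raised the KO-only count from 24 to 40, and reciprocal overlap of 50% raised it to 63 and the control-only count from 52 to 101. Without Rora the counts were 12 and 28. The settings without Rora and by the number of joined replicate regions were chosen after seeing the data. With only regions joined from 3 or more replicate regions kept in both lists, control-only regions numbered 13, the KO-only share was 65.8%, the median log2 covered ratio was 0.512, Thra and Rara reached log2 ratios of 1.197 and 1.627, and Rxrg reversed to 0.585. With the same demand on genotype-only regions alone, counts were 6 KO-only and 5 control-only, and the share was 54.5%. The cause was not tested. Assignment by nearest start gave log2 ratios of 0.650 for Thrb and 0.635 for Nr3c1. The share with a motif match was 5.42% in control and 4.69% in KO in the central 200 bp, 50.6% and 60.9% over whole regions, and 4.22% and 3.91% for exact matches, since these settings change the length searched or the matches allowed. The planned limit of 2 or more joined regions removes nothing, as every region has at least 2, and is not counted here. Of 72 covered-length ratios of single genes under alternatives that could move, 67 kept their side of 1.5-fold. The lists hold no signal or depth, so how far a region missing from a list lay below the calling threshold is unknown.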
